A study of Mus musculus with 7 samples.

Results

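The histone gene mRNAs described here come from 82 protein-coding genes of 55450 annotated mouse genes. They were chosen by symbol from the GENCODE M21 annotation of the GRCm38 genome. Symbols that start with Hist1h, Hist2h, Hist3h or Hist4h gave 67 clustered genes, and symbols that start with H1f, H2af or H3f gave 15 replacement genes. By class they are 10 H1, 27 H2A, 18 H2B, 14 H3 and 13 H4 genes. The series sequenced RNA recovered with Ezh2, the enzyme of Polycomb repressive complex PRC2 that methylates histone H3, in mouse embryonic stem cells kept in LIF. In this assay (RIP-seq) an antibody pulls a protein from nuclear lysate, and its bound RNA is turned into cDNA, here by template switching. The labels describe 5 libraries made with an anti-Ezh2 antibody from cells of strain 129X(M.castaneusX129), of which 2 are deeper runs of 2 lanes each and 1 is a technical replicate. A further library used the same antibody on Ezh2 null cells of strain M.musculus, and 1 used normal rabbit IgG on 129X(M.castaneusX129) cells. The cells of the 7 libraries are otherwise described as untreated or without a stated treatment.

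All values rest on 1 table that lists 6540936 read sequences with their counts, 34072479 reads in sum. No label ties the table to any of the 7 libraries. The name of the file was not used to assign it, so the table need not draw on all 7. It was therefore treated as 1 pool, with no replicate, no test and no comparison of Ezh2 with IgG or Ezh2 null, and no value below is an enrichment. Of the 31529044 reads long enough to be searched, 28.5% lay in sense orientation on a single gene, 8.07% in antisense orientation, and 52.6% matched no annotated transcript. As a check of the labelled cell type, 10 of 10 embryonic stem cell markers had at least 50 sense reads (52 to 66761), as did 7 of 7 fibroblast markers (327 to 5268) and 29.9% of all nuclear protein-coding genes. Antisense reads made up 46.2% of the reads of Pou5f1, 52.2% of Esrrb and 57.6% of Thy1. The labels name no feeder cells, and the part of fibroblast RNA in the histone counts was not tested. In pooled RNA, the number of cells of a type and the RNA per cell cannot be told apart.

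Clustered, or replication-dependent, histone genes are transcribed in S phase, and their mRNAs supply the core and linker histones that package newly copied DNA. Nearly all of them lack introns, and their mRNAs end in a conserved stem-loop in place of a poly(A) tail. The stem-loop is bound by the protein Slbp, and the U7 small nuclear RNA guides a cut a few bases beyond it. Replacement histones such as H3.3, H2A.Z and macroH2A are made throughout the cell cycle from genes that mostly have introns and give polyadenylated mRNAs. Some clustered genes are known to give longer, polyadenylated mRNAs as well. In embryonic stem cells, which spend much of their cycle in S phase, the clustered mRNAs are known to be abundant.

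The stem-loop itself is shown first, because it marks where the usual clustered mRNA ends. A script found the commonest run of 16 bases within the 150 annotated bases after the stop codon of the histone genes. Capitals mark the 6 bases of each arm of the stem, and lower case marks the loop.
Hist1h1c, chr13:23739512-23739527, plus strand: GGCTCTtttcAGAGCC
Hist1h4h, chr13:23531458-23531473, plus strand: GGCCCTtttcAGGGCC
Hist1h3c, chr13:23745047-23745062, minus strand: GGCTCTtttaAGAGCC
H2afx, chr9:44335240-44335255, plus strand: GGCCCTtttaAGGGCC
The first form was held by 25 histone genes and by 26 of all 21938 nuclear protein-coding genes, or 0.119%, the remaining gene being H2bfm. On the opposite strand 0 of the 21938 held it in that window. The second form was found in 7 H4 genes, and the third in 6 clustered genes of the other classes. With up to 3 differences from the first form, 44 histone genes held the run. These were 43 clustered genes and H2afx, a replacement gene by its symbol, and they included 41 of the 48 clustered genes with at least 60 annotated bases after the coding sequence.

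The busiest sites of single genes are shown next, because much of what follows turns on whether they can be told from other sequence. Reads run against the RNA, so a read starts at the 3′ end of the RNA stretch it covers. Each line gives the RNA-sense letters of 30 bases that end at the last start of the busiest site of that gene, a site being the 12 bases with most starts. Capitals mark bases at which reads start within those 12.
H3f3b, chr11:116023196-116023225, minus strand: tgtggctcaggagtgacaagttGcTAATaC
Hist1h1c, chr13:23739797-23739826, plus strand: gcccaggactctagttcttcgtttgaTTGG
Hist1h4h, chr13:23531173-23531202, plus strand: gcaaagtgctgcgtgacaAcatCcagggcA
Hist2h2bb, chr3:96269998-96270027, plus strand: cattacaacaagcgctcgaccatcactTCC
Hist1h1d, chr13:23556747-23556776, plus strand: gtttgtgtgtgtgtgtgtgtgtGTGTGTGT
Hist1h2bc, chr13:23692802-23692831, plus strand: aaaaggagagagagagagagagAGaGaGAG
H2afy, chr13:56101179-56101208, minus strand: tgagtcagaacagctgagttgaaccaGcCA
The first 4 are ordinary sequence, at which most reads matched without a mismatch. They held 30.6% of the reads of H3f3b, 24.0% of Hist1h1c, 34.2% of Hist1h4h and 100% of Hist2h2bb. All 121 reads at the H3f3b site and all 35 at the Hist1h1c site had no other gene within 1 further mismatch. This held for 16 of 27 reads at the Hist1h4h site and for 2 of 62 at the Hist2h2bb site. The Hist2h2bb site is thus hard to tell from other genes. The Hist1h1d and Hist1h2bc sites are runs of GT and of AG. Of the 291 reads at the Hist1h1d site, 1 matched without a mismatch, 175 had 1 mismatch and 115 had 2. At the Hist1h2bc site 7 of 58 reads matched without a mismatch. The H2afy site lies in an isoform with a retained intron, and 0 of its 66 reads matched without a mismatch.

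Histone genes had 1903 sense reads that belonged to a single gene (Poisson 95% interval 1818 to 1990), which was 60.4 per 1000000 searched reads. This was 0.0343% of the 5549131 sense reads of nuclear protein-coding genes. Simple-repeat reads, in which an unbroken run of a unit of 1 to 3 bases takes at least 50% of the matched bases, made up 17.4% of the histone reads, against 0.542% over nuclear protein-coding genes. Without them 1572 histone reads were left, or 49.9 per 1000000. All intervals cover counting error only, since copies made by PCR look like further molecules.

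Few histone genes carried most of these reads. The 3 highest, H3f3b, Hist1h1d and H2afy, held 924 reads or 48.6%, and the 10 highest held 78.3%. Of the 82 genes, 52 had a sense read and 30 had 0, a result that allows up to 3 reads. The share at 0 was 36.6%, against 27.2% over all nuclear protein-coding genes. A count of 10 or more was reached by 22 histone genes, or 26.8%, against 52.3% of all nuclear protein-coding genes. A count of 50 or more was reached by 10 of them, or 12.2%, against 29.9%, and by 8 without simple-repeat reads. Per length, the median over the histone genes was 0.0715 RPKM, the sense reads of a gene for each 1000 exon bases and each 1000000 searched reads, against 0.0934 RPKM over all nuclear protein-coding genes. The genes with 0 reads were 1 H1, 12 H2A, 7 H2B, 6 H3 and 4 H4 genes. Reads that match such a gene and a sister gene equally well are not in these counts, so a 0 here does not show that the gene had no read.

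**Figure D1:**
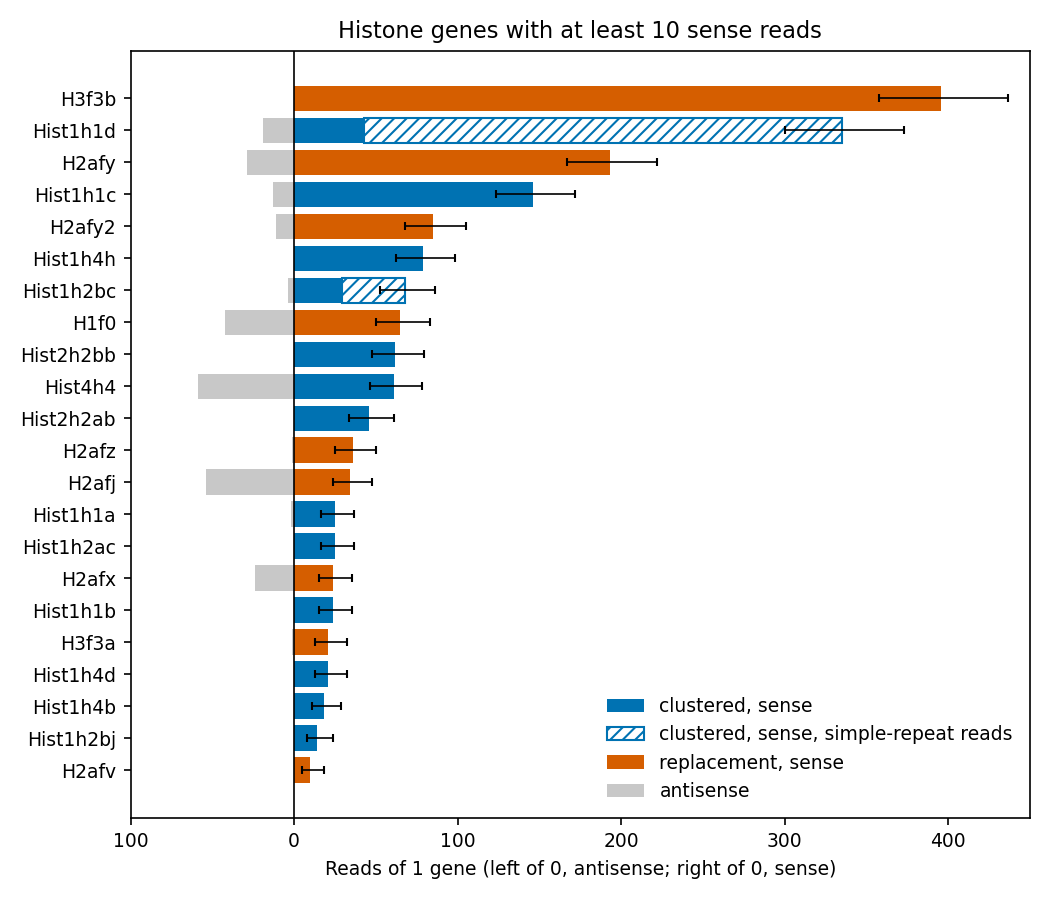
Sense reads (right of 0) and antisense reads (left of 0) of the 22 histone genes with at least 10 sense reads of 1 gene, where blue bars are clustered genes, orange bars replacement genes, hatched bars simple-repeat reads and black lines Poisson 95% intervals of the sense count. H3f3b leads with 396 reads, 292 of the 335 reads of Hist1h1d are simple-repeat reads, and H2afj has more antisense than sense reads.

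Among the linker histones, which bind the DNA that enters and leaves the nucleosome, Hist1h1d (chr13:23553262-23560686, plus strand) had 335 sense reads at 18 start positions (300.1 to 372.9). The highest position held 132 of them, and 323 lay downstream of the stop codon. Its 291 reads in the GT run started 1014 to 1021 bases past the stop codon, and 116 of them had no other gene within 1 further mismatch. A further 86 reads matched Hist1h1d and genes elsewhere equally well, 62 of them simple-repeat reads. Without simple-repeat reads 43 were left, 12 of them in coding sequence and 28 at a single position 3492 bases past the stop codon. It had 19 antisense reads, of which 15 lay at 1 position. Whether the GT reads came from this gene was not tested.

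Hist1h1c (chr13:23738808-23740367, plus strand), another somatic linker histone gene, had 146 sense reads at 33 start positions (123.3 to 171.7), with 18 at the highest. Of these, 133 matched without a mismatch, 143 had no other gene within 1 further mismatch, and 129 lay downstream of the stop codon. Its reads were thus spread over many positions of a sequence that could be told from other genes. H1f0, the linker histone gene linked to cells that stop dividing, had 65 sense reads at 19 positions (50.2 to 82.9), of which 46 lay in coding sequence and 9 at the highest position. It also had 42 antisense reads, 39.3% of its total. The noncoding gene Gm49544 lies on the other strand, but a read in sense orientation on Gm49544 counts for that gene. The source of the 42 antisense reads was not tested. Hist1h1a had 25 sense reads, 11 of them at 1 site where 0 matched without a mismatch, and Hist1h1b had 24, all in coding sequence. The annotated Hist1h1b transcript ends with the coding sequence. Below the count of 10, Hist1h1e had 8, the testis form Hist1h1t 4, H1fx 4 and the spermatid form H1fnt 1, and the oocyte form H1foo had 0.

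By single-gene reads the H2A class was led by replacement genes, with 382 against 97 for clustered genes. Clustered H2A genes lose more reads to other genes that match equally well, which are not sister genes alone. Of all stretches of 34 bases, 46.9% of theirs matched 1 gene alone, against 83.3% of those of replacement H2A genes. The single-gene counts therefore do not rank the kinds within H2A. H2afy (chr13:56073619-56136361, minus strand), which encodes macroH2A1, a variant with a large extra domain, had 193 sense reads at 35 positions (166.7 to 222.2). Of these, 41 lay in coding sequence, 53 downstream and 99 in noncoding isoforms alone. The 66 reads at the retained-intron site above are part of those 99, and 16 of the 66 had no other gene within 1 further mismatch. H2afy2, which encodes macroH2A2, had 85 sense reads at 14 positions (67.9 to 105.1), with 35 at the highest position and 63 in coding sequence. The macroH2A genes thus had reads in coding sequence as well as outside it, and both had a smaller number of antisense reads, 29 for H2afy and 11 for H2afy2.

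H2afz, which encodes H2A.Z, a variant of promoter nucleosomes, had 36 sense reads, of which 35 lay at 1 position 423 bases past the stop codon and 0 of these matched without a mismatch. A further 153 reads matched H2afz together with genes elsewhere, 14 of them with Gm26623 alone. H2afj had 34 sense reads, all downstream, with 18 at 1 site where 0 matched without a mismatch. H2afx, whose product is phosphorylated at DNA breaks, had 24 sense reads, 17 of them at 1 position 838 bases past the stop codon, and 20 matched without a mismatch. H2afv, the second H2A.Z gene, had 10 sense reads at 5 positions, 9 of them downstream. H2afb1, H2afb2 and H2afb3, short variants of the male germ line, had 0. Most reads of H2afz and H2afx thus lay at 1 position each.

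Of 18 clustered H2A genes, Hist2h2ab had the most reads, 46 at 8 positions (33.7 to 61.4), with 13 at the highest position. All lay in coding sequence, with which its annotated transcript ends. At its busiest site 30 of 32 reads matched without a mismatch. Hist1h2ac had 25 sense reads, of which 16 lay at 1 position 381 bases past the stop codon and 24 matched without a mismatch. Another 9 clustered H2A genes had 0 reads of their own, and the other 7 had 1 to 9.

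In the H2B class, which is made up of clustered genes here, Hist1h2bc had 68 sense reads at 9 positions (52.8 to 86.2), all downstream, with 26 at the highest. The AG run lies 665 bases past the stop codon in the second exon and took 58 of them, 39 of which were simple-repeat reads. A further 455 reads matched Hist1h2bc and genes elsewhere equally well, 72 of them the gene and Spata1 alone, and 415 of the 455 were simple-repeat reads. The single-gene count of Hist1h2bc therefore rests on reads that differ little from many that no gene can claim, and 29 were left without simple-repeat reads. Hist2h2bb had 62 sense reads (47.5 to 79.5), all at 3 neighbouring positions in coding sequence and 56 at 1 of them. Of these, 54 matched without a mismatch, and 2 had no other gene within 1 further mismatch. The noncoding gene Gm20628 overlaps Hist2h2bb on the other strand, and the annotated Hist2h2bb transcript is coding sequence throughout. Hist1h2bj had 14 reads, all at 1 position 9 bases past the stop codon, and 12 matched without a mismatch. These reads also cover coding sequence.

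The H3 class was led by H3f3b (chr11:116021912-116027962, minus strand), 1 of the 2 genes for H3.3, the variant laid down outside replication. It had 396 sense reads at 32 positions (358.0 to 437.0) and 0 antisense reads. Of these, 378 lay downstream of the stop codon, 364 matched without a mismatch and 381 had no other gene within 1 further mismatch. The highest position held 42, or 10.6%, and the busiest site, 204 to 211 bases past the stop codon, held 121. By read length, 20 were of 36 bases and 375 of 40 bases. H3f3a, the other H3.3 gene, had 21 sense reads, 18 of them at 1 position 139 bases past the stop codon, and all 21 were of 40 bases. Another 308 reads matched H3f3a and pseudogenes elsewhere equally well. The 2 H3.3 genes therefore cannot be ranked by single-gene reads. The clustered H3 genes had 21 reads in all, of which Hist1h3a had 9 at 1 position in coding sequence, where 0 had no other gene within 1 further mismatch.

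Among the H4 genes, Hist1h4h had 79 sense reads at 24 positions (62.6 to 98.5) and 0 antisense reads, with 52 in coding sequence, 25 downstream and 15 at the highest position. It matched without a mismatch in 67 reads and had the highest level per length of the histone genes, 5.33 RPKM. Its 25 downstream reads start 7 to 51 bases past the stop codon, and most of them also cover coding sequence. Hist4h4 (chr6:136801553-136804415, minus strand), which lies apart from the large clusters, had 61 sense reads at 20 positions (46.7 to 78.4), 40 of them in coding sequence and 11 at the highest position. It also had 59 antisense reads, 49.2% of its total, of which 25 lay at 1 position, and a further 173 reads matched it and genes elsewhere. Hist1h4d had 21 sense reads at 9 positions, 10 in coding sequence, 11 downstream and 7 at the highest, and Hist1h4b had 18 at 1 position in coding sequence. Of those 18, 1 had no other gene within 1 further mismatch.

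Ordered per length, the histone genes stood differently than by reads. After Hist1h4h came Hist2h2bb with 5.16 RPKM, H3f3b with 4.22, Hist2h2ab with 3.29 and Hist1h1c with 2.97. Hist1h2bc had 1.87 RPKM and 0.796 without simple-repeat reads, and Hist1h1d had 1.43 RPKM and 0.184 without them. Hist1h4b had 1.44 RPKM, H2afy2 1.24, Hist1h1a 1.07, Hist1h1b 1.02, H1f0 1.003 and H2afy 0.899. Over the 22 genes with 10 or more reads, 20 of 21 neighbours in this order had overlapping counting intervals. The exception was Hist1h1c (2.51 to 3.49 RPKM) and Hist1h2bc (1.45 to 2.37 RPKM). Of these 22 genes, 7 had over 50% of their reads at 1 position.

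Reads lost to other genes that match equally well bear on each class in a different measure. When each histone mRNA was cut into all stretches of 34 bases, 66.8% of the stretches matched that gene alone. The share was 87.5% for replacement and 59.5% for clustered genes, and within the clustered genes it was 91.8% for H1, 71.0% for H4, 51.5% for H2B, 46.9% for H2A and 31.9% for H3. Beside the 1903 single-gene reads, 235 matched several genes of 1 class, or a histone gene and a gene that overlaps it. The 235 were all of clustered genes, and 178 of them lay in coding sequence. Another 499 matched a histone gene and pseudogenes elsewhere, and 1600 matched a histone gene and other genes elsewhere, of which 478 were simple-repeat reads. Counted by class, 617 reads stayed within H1, 520 within H2A, 273 within H2B, 486 within H3 and 242 within H4, a total of 2138. The shared reads added most to H2B, where 98 joined 175, and least to H1, where 5 joined 612. In H2A, 174 reads matched 16 histone genes and several genes outside the histone symbols at once.

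**Figure D2:**
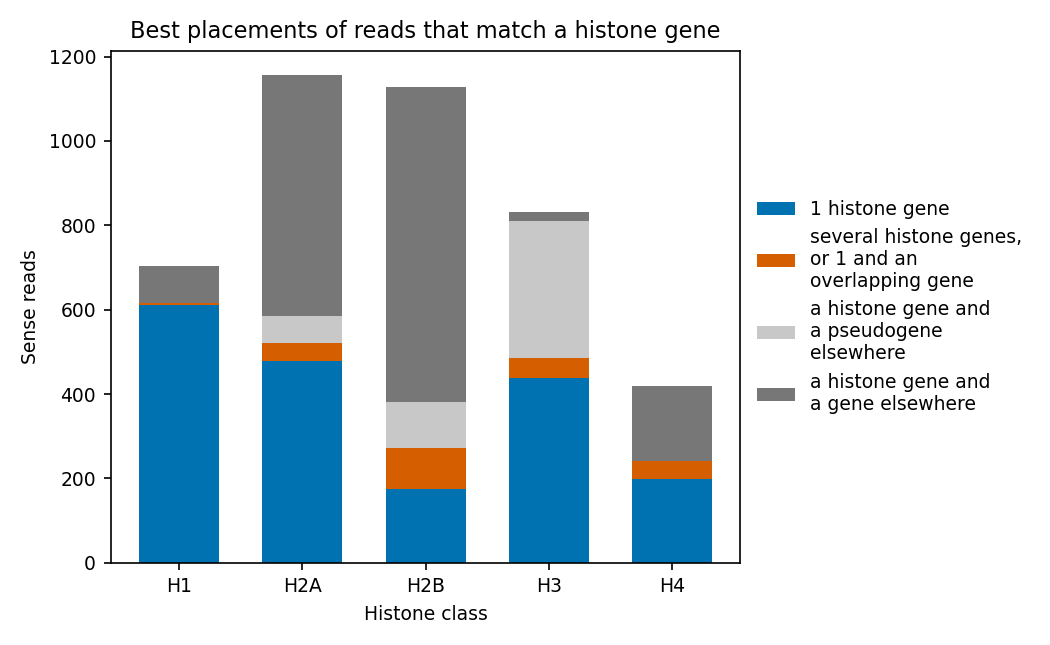
Sense reads that match a histone gene, by class, split by where the best placements lay: in 1 histone gene (blue), in several histone genes or in 1 and a gene that overlaps it (orange), in a histone gene and a pseudogene elsewhere (light grey), or in a histone gene and a gene elsewhere (dark grey). The dark grey part is 746 reads for H2B and 570 for H2A, and the light grey part is 325 reads for H3.

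Clustered genes held 1034 of the 1903 single-gene reads, or 54.3% (Clopper-Pearson 95% interval 52.1 to 56.6), and replacement genes held 869. The clustered share was 44.7% without simple-repeat reads and 46.2% with reads that matched without a mismatch, so that which kind held more reads changed with the counting. By counts of members, 13 of 67 clustered and 9 of 15 replacement genes had at least 10 reads, and 26 clustered and 4 replacement genes had 0. The median level was 0.0650 RPKM for clustered and 0.194 RPKM for replacement genes. Among clustered loci, the Hist1 locus on chromosome 13 held 846 reads over 54 genes, Hist2 on chromosome 3 held 118 over 10, Hist3 on chromosome 11 held 9 over 2, and Hist4 on chromosome 6 held the 61 of Hist4h4. Reads of 36 bases made up 25.3% of clustered reads of 36 or 40 bases, 13.5% of replacement reads and 11.7% over nuclear protein-coding genes, against 20.2% of searched reads, and the read lengths cannot be tied to libraries. H3f3b, H2afy, Hist4h4, H3f3a and Hist1h2bj were read mostly at 40 bases, with 20, 29, 8, 0 and 1 reads of 36 bases beside 375, 163, 53, 21 and 13 of 40. Hist1h1d, Hist1h1c, H2afy2, Hist1h4h and Hist1h4d had 65, 46, 19, 22 and 3 reads of 36 bases beside 269, 99, 66, 52 and 18 of 40. The lengths were more even in Hist1h2bc, Hist2h2bb and Hist1h3a, with 25, 25 and 4 reads of 36 bases beside 40, 37 and 5 of 40. H1f0 and Hist2h2ab had more 36-base reads, 33 and 22, than 40-base reads, 30 and 12.

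Histone reads lay in coding sequence less often than reads of all nuclear protein-coding genes, though classes differed and 3 genes weighed heavily. Coding sequence held 28.4% of the histone sense reads (26.4 to 30.5), against 78.0% over all nuclear protein-coding genes. The region downstream of the stop codon held 66.1% (63.9 to 68.2), against 15.4%. A read that starts just past the stop codon counts as downstream, though part of it covers coding sequence. H3f3b, Hist1h1d and Hist1h1c held 830 of the 1258 downstream reads, and without these 3 genes coding sequence held 493 of 1026 reads, or 48.1% (45.0 to 51.2). By class the coding share was 61.8% in H4, 50.3% in H2B, 33.6% in H2A, 22.6% in H1 and 6.85% in H3. Without simple-repeat reads it was 43.1% in H1 and 64.7% in H2B and unchanged in the other classes, so the order of the classes changed. The share was 94.1% at the Hist2 locus, where Hist2h2bb and Hist2h2ab held 62 and 46 of 118 reads. Their annotated transcripts end with the coding sequence, so none of their reads could count as downstream. Without simple-repeat reads coding sequence held 34.4% of histone reads, against 78.4%. It held 38.5% with all best placements shared equally between genes, a count that also takes in reads shared with pseudogenes and other genes elsewhere. Of the 235 reads shared within a class, 178 are coding, and they do not enter the single-gene share. By start positions, each counted once, coding sequence held 46.8% of histone positions and 62.4% of positions over nuclear protein-coding genes. Clustered genes had 35.4% of their reads in coding sequence, and 52.1% without simple-repeat reads. Replacement genes had 20.02%, of which the H3 genes had 4.32% and the H1 genes 72.9%. In the histone transcripts, 40.6% of the bases were coding.

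**Figure D3:**
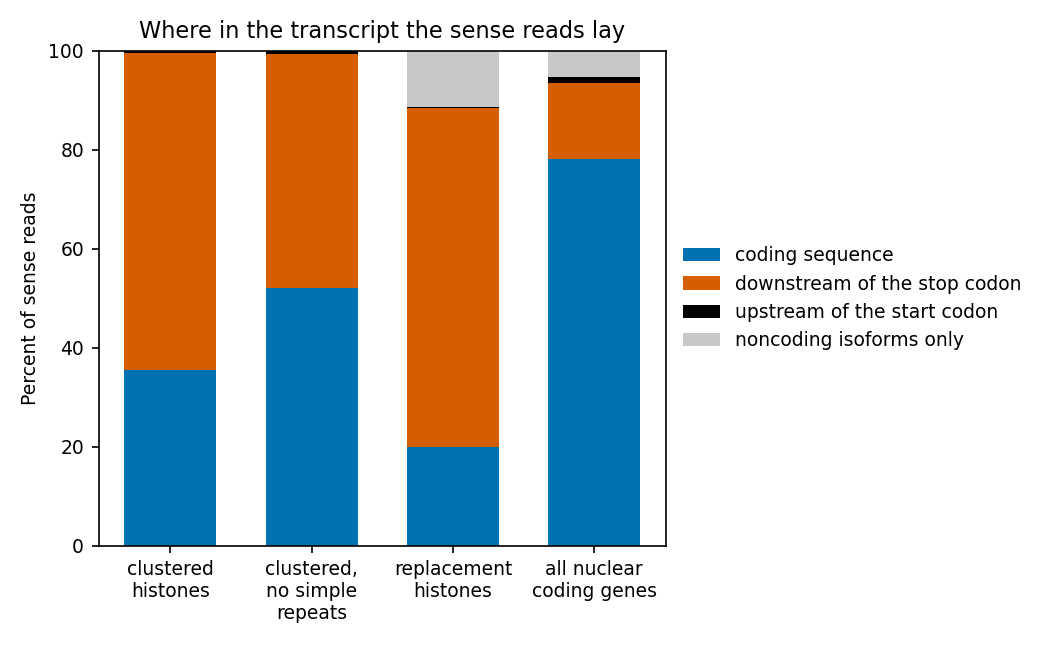
Percent of sense reads of single genes in coding sequence, downstream of the stop codon, upstream of the start codon or in noncoding isoforms alone, for clustered histone genes, the same without simple-repeat reads, replacement histone genes and all nuclear protein-coding genes. Regions go by the start of the read, and coding sequence holds 35.4%, 52.1%, 20.02% and 78.0% in that order.

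Reads were found in annotated sequence beyond the stem-loop run. In the 23 genes with the run and at least 100 annotated bases beyond it, H2afx among them, 546 sense reads lay wholly beyond the run, 1 crossed its end and 121 lay before it. The share beyond was 81.7% (78.6 to 84.6), where the annotated sequence beyond made up 62.0% of the length. These are single-gene reads, and 178 of the 235 reads shared within a class lay in coding sequence, which lies before the run. How far leaving them out changed the share beyond was not tested. Hist1h1d and Hist1h1c held most of the reads beyond the run. Without simple-repeat reads 254 lay beyond, or 67.6% (62.6 to 72.3), without Hist1h1d the share was 67.9%, and without both genes it was 51.9% (44.5 to 59.2). Counting each start position once, 54 positions lay beyond and 65 lay before the end of the run, which put 45.4% beyond, below the share of length.

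Single genes differed in this. Hist1h1c had 129 reads beyond the run and 17 before its end, H2afx had 23 and 1, and Hist1h2ac had 21 and 4. Hist3h2a had 9 beyond and 0 before, and Hist2h4 had 7 and 2. Hist4h4 had 20 beyond and 41 before, Hist1h4d 7 and 14, and Hist1h1e 0 and 8. Of the 19 genes of this set with a read, 11 had a read beyond the run, and 8 had more reads beyond than before. In the 21 genes with under 100 annotated bases beyond, that sequence made up 6.72% of the length and was often shorter than a read. There 1 read lay beyond and 123 lay before the end, of which 77 were of Hist1h4h. The reads beyond stand in annotated exons, and whether they come from the longer histone mRNA or from another RNA that runs through the same stretch was not tested.

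**Figure D4:**
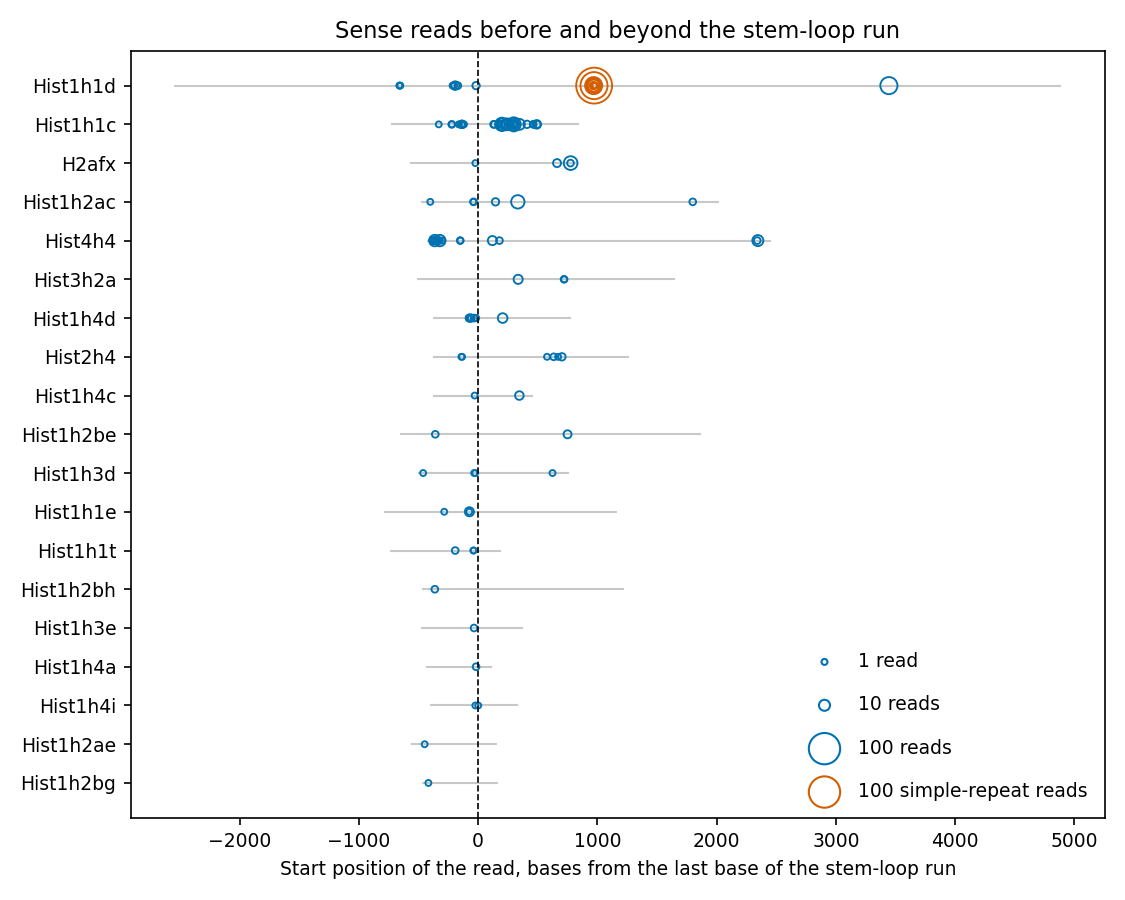
Start positions of sense reads (circles, area growing with the number of reads, simple-repeat reads in orange) in the 19 genes with the stem-loop run, at least 100 annotated bases beyond it and a read, by distance from the last base of the run (dashed line), where grey lines show the annotated transcript. Reads of Hist1h1c spread over many positions beyond the run, those of Hist1h1d pile up at 1 stretch, and those of Hist4h4 lie mostly before it.

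Most histone reads were in RNA-sense orientation. The antisense share was 13.1% (11.7 to 14.6), with 286 antisense and 1903 sense reads, against 13.1% over nuclear protein-coding genes. By start positions it was 19.5%, against 23.9%. By reads it was 10.1% for clustered (8.41 to 11.97) and 16.4% for replacement genes (14.2 to 18.8). Without simple-repeat reads it was 13.7% (11.45 to 16.3) and 16.2% (14.01 to 18.6), with overlapping intervals. By class the antisense share was lowest in H3, with 1 antisense read beside 438 sense reads, and reached 23.8% in H4, where 59 of the 62 antisense reads were of Hist4h4. A read in sense orientation on an annotated gene of the other strand counts for that gene and leaves the histone antisense count. Such genes are annotated opposite most H2A genes and H3f3a, and opposite few H1 and H4 genes. Their effect on the shares by kind and class was not tested. Of the 11 histone genes with at least 50 reads on either strand, 1 stood above 50% antisense with its whole interval, or 9.09% of them, against 13.5% of nuclear protein-coding genes. That gene was H2afj, with 54 antisense and 34 sense reads (61.4%, 50.4 to 71.6), 34 of the antisense reads at 1 position. H2afx had 24 reads on each strand, at 12 antisense and 4 sense positions.

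Genes that process histone mRNA or handle histone proteins had more single-gene reads than the histone genes. Of 48 such genes, 42 had at least 50 sense reads, against 29.9% of nuclear protein-coding genes and 10 of the 82 histone genes, and their median level was 1.37 RPKM. The histone counts leave out reads that match several genes, which made up 45.15% of simulated histone reads. Read counts are also not set per length. With Cenpa, Hils1 and H2al2a, histones that the symbol rule leaves out, the list had 51 genes, of which 43 reached 50 reads, and a median of 0.994 RPKM. Of the 16 genes of transcription and 3′ end formation, 12 reached 50 reads. Of the 32 chaperone genes 30 did, with Ipo4 at 11 and Znhit1 at 5. The 6 highest were Anp32e, a chaperone that removes H2A.Z, with 18657 sense reads (18390.2 to 18926.7), Ssrp1, a subunit of the FACT complex, with 6343, Atrx, a loader of H3.3, with 5684, Npm1 with 4010, Nasp, a carrier of H3 and H4, with 3430, and Hjurp, the chaperone of the centromeric H3 variant, with 2240. These counts rested on many positions, from 72 for Hjurp to 433 for Atrx, though not evenly. The highest position held 1696 of the 4010 reads of Npm1, 660 of the 2240 of Hjurp and 1172 of the 6343 of Ssrp1. It held 1034 reads for Anp32e, 279 for Nasp and 239 for Atrx. Counting each start position once, 18 of the 51 had at least 50. No share over all nuclear protein-coding genes stands beside this count, so it cannot be called high or low.

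The machinery of the stem-loop itself was present at lower counts. Slbp, the stem-loop binding protein gene, had 186 sense reads at 19 positions (160.2 to 214.7), and Casp8ap2, a factor of histone gene expression in S phase, had 301. Npat, the coactivator of histone genes, had 88, and Zfp473, a partner of the U7 particle, had 96. Lsm11 had 23 and Lsm10 had 2, which are both subunits of the U7 particle, and the U7 RNA gene Rnu7 had 0, as did Mblac1. The histone cleavage factors Cpsf3 with 257, Cpsf2 with 249 and Sympk with 289 reads also serve other mRNAs. Of the histone genes outside the symbol rule, Cenpa, the centromeric H3 variant, had 86 sense and 155 antisense reads, and Hils1 and H2al2a had 0.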

How the data were processed

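The deposited table lists distinct read sequences with the authors' read counts, without a header. The submitters' processing notes name mm9, and no aligner is given in the sources used here, and no label or header states how reads were filtered. The leading 6 bases of each read, where mismatches ran from 39.9% at base 1 to 11.4% at base 6 against 1.43% later, were left out, and at least 20 had to remain. Reads were matched to GENCODE M21 transcripts (GRCm38) with bwa 0.7.19, up to 2 mismatches and no gaps. A read counted for a gene when all best placements lay on it, with antisense placements allowed on genes overlapping it. Introns, intergenic sequence and repeats outside transcripts were not searched, and M.castaneus differences can use up mismatches. Intervals (scipy 1.17.1) are exact at 95%. Of 20000 simulated histone reads, 52.4% returned to their own gene, 45.2% matched several genes and 0.56% went to a wrong gene. Planned tests between groups were not possible. Genes with at least 10 sense reads, the 3 highest of each class and kind and the 6 highest of the list are named by rule, and others named were chosen after their values were seen. The genes and lists were chosen with earlier results of these data known, and simple repeats and the stem-loop were added after seeing the data.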

Additional observations from a re-analysis of the deposited data

How the results depend on the processing

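No paired analysis was possible because the 1 table has no column per library. The 1903 sense reads became 747 with each distinct sequence counted once, 327 with each start position counted once, 1187 with no mismatch, 1442 with no other gene within 1 further mismatch, 2662 with all best placements shared equally, 1263 without the highest position of each gene, 373 and 1503 in 36-base and 40-base reads, and 1572 without simple-repeat reads. In that order the clustered share, 54.3% as reported, was 65.5%, 62.4%, 46.2%, 47.0%, 59.97%, 48.8%, 68.6%, 50.2% and 44.7%. It fell below 50% without mismatches, without near genes, without the highest positions and without simple repeats, so which kind of gene held more reads is not settled by these data. The coding sequence share, 28.4% as reported, was 39.0%, 46.8%, 34.5%, 24.2%, 38.5%, 25.9%, 45.0%, 23.4% and 34.4% in the same order and 48.1% without H3f3b, Hist1h1d and Hist1h1c, and stayed under the share of all nuclear protein-coding genes as reported. The antisense share, 13.1% as reported, was 19.5% by start positions, 15.9% with placements shared, 9.66% without the highest positions, 11.3% in reads of at least 36 bases, 10.8% in 40-base reads and 15.1% without simple-repeat reads. The reads kept within a class, 2138 as reported, were 1360 with no mismatch and 884 by distinct sequences. The share beyond the stem-loop, 81.7% as reported, was 67.6% without simple-repeat reads, 67.9% without Hist1h1d, 51.9% without Hist1h1c and Hist1h1d, 45.4% by start positions and 76.9% in 36-base reads. Of the processing and chaperone list, 43 as reported, 18 reached 50 by start positions and 26 reached 200 reads. The cause of these shifts was not tested. Depth limits the 30 genes with 1 to 9 reads, and with 1 pool no spread between cultures is known.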
